A study of Homo sapiens with 2 samples.

Results

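The genes described here encode the chains of laminins and the subunits of integrins. The rule that picks them reads the gene symbol and no measured value: a member is any gene whose symbol is that of a laminin alpha, beta or gamma chain or of an integrin alpha or beta subunit, and 37 of the 55797 genes in the RNA-seq tables matched. These were 11 laminin chain genes, 18 integrin alpha genes and 8 integrin beta genes, all annotated as protein-coding. Each gene was measured once in live and once in processed Stage 6 cells. Both samples came from a single differentiation of the established H1 line of human embryonic stem cells, carried to the last stage of a stepwise pancreatic protocol. The culture at this stage is a mixture in which only some cells express insulin. RNA of the live sample was isolated at once from unfixed, unsorted cells. Processed cells were dispersed, fixed in paraformaldehyde, permeabilized with saponin, stained with antibodies and passed through a cell sorter with all cells collected, so that the cell mixture was meant to stay the same, and their RNA was released by a protease digestion. The comparison asks whether this treatment, called MARIS, changes the amount at which each transcript is seen.

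Laminins are large cross-shaped proteins of the basement membrane, the sheet of matrix under epithelia. Each is built from one alpha, one beta and one gamma chain, and the alpha chain carries the main binding site for cells. Integrins are receptors of the cell surface made of one alpha and one beta subunit. The alpha subunits ITGA3, ITGA6 and ITGA7 bind laminins, others bind collagens or proteins with the sequence arginine-glycine-aspartate, and a further group is known mainly from leukocytes. ITGB1 pairs with most of the alpha subunits. In the pancreas, basement membrane laminins underlie the ducts and acini and surround the vessels of the islets.

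Levels are FPKM, fragments scaled to the length of the transcript and to the size of the library. This unit is meant to correct for gene length, so that levels of different genes can be compared within a library. The paper reports that coverage of longer genes leaned towards the tail end of the transcript, and slightly more so after processing. Its effect on comparisons between genes was not tested. The files give a lower and an upper bound for each FPKM, written here in brackets. No source used here says at which confidence level they were set, and they describe 1 library alone. FPKM summed to 510713 in live and 499398 in processed cells, and 16004 and 15957 genes reached 1 FPKM. From the smallest steps between low values, a single fragment added 1.07 times more FPKM in processed than in live cells, so the processed library was slightly shallower. Detection of low genes differed more: of all 55797 genes, 5375 were above 0 in live cells only and 982 in processed cells only. A value listed at 0 in processed cells is to be read beside these numbers. With 1 library per condition there is no replicate error and no test between conditions, so every difference below is between these 2 libraries. Differences are given as the ratio of processed to live FPKM, or as a log2 ratio, log2 of (processed FPKM + 1) over (live FPKM + 1), on which changes at low FPKM look smaller than they are. In bulk RNA, fewer cells of a type and less RNA per cell cannot be told apart.

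The labelled cell type was checked first against marker genes. Insulin (INS) stood at 98.3 and 121 FPKM in live and processed cells, PDX1, a transcription factor of pancreatic progenitors, at 66.5 and 72.1 FPKM, and the epithelial adhesion gene EPCAM at 182 and 180.2 FPKM. INS and PDX1 had the highest log2 ratios of their lists. The 5 endocrine markers summed to 2278 and 2265 FPKM, with 2 higher and 3 lower in processed cells. The 3 progenitor markers summed to 166 and 173 FPKM, with 2 higher and 1 lower. All 6 mesenchymal markers examined were also present, led by COL1A1 with 31.9 and 22.7 FPKM. The cultures therefore held epithelial, endocrine and mesenchymal transcripts side by side, and the laminin and integrin values are sums over such a mixture.

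A total of 25 of the 37 genes reached 1 FPKM in one library or both, which is the filter used throughout, and the remaining 12 stayed below 1 in both. ITGB1, LAMA5, LAMB1, LAMA1 and LAMB2 formed the top 5 in both libraries, in a different order. In live cells the order was ITGB1, LAMA5, LAMB1, LAMA1 and LAMB2, and the bounds of neighbours overlapped only for LAMA5 and LAMB1. In processed cells the order was LAMA5, LAMB1, LAMB2, ITGB1 and LAMA1, and no neighbouring bounds overlapped, although those of LAMA5 and LAMB1 nearly touched. LAMA5 was the 577th most abundant of all genes in live cells and the 447th in processed cells. Together the 37 genes took 0.134% of the summed FPKM in live and 0.149% in processed cells.

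**Figure D1:**
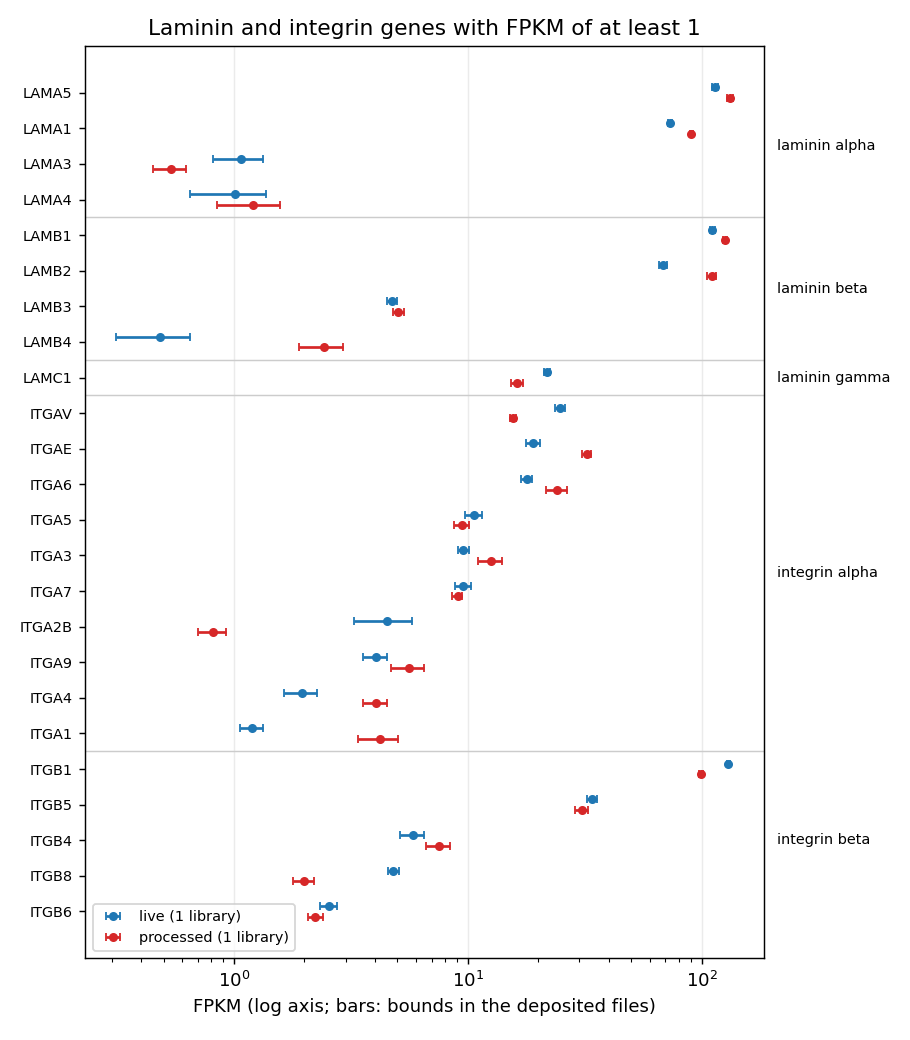
FPKM (log axis) of 24 of the 25 laminin and integrin genes that passed the filter of 1 FPKM, grouped by class, in live (blue) and processed (red) cells. Points are the single library of each condition and bars are the bounds in the deposited files; LAMA5, LAMA1, LAMB1, LAMB2 and ITGB1 lie between 68.4 and 132 FPKM in both, whereas LAMB4, ITGA1 and ITGA2B show the widest gaps.

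No gene with the symbol LAMA2 was among the 37 matched, so this laminin alpha chain has no value here. Among the 4 alpha chains that were matched, LAMA5 and LAMA1 made up nearly the whole pool. LAMA5, the alpha chain of most adult epithelial basement membranes (chromosome 20, 60883011 to 60942368 on GRCh37), had 115 FPKM in live cells (111 to 118) and 132 FPKM in processed cells (129 to 136), a ratio of 1.16. LAMA1, the alpha chain of the earliest embryonic basement membranes (chromosome 18, 6941743 to 7117813), had 73.3 FPKM (72.1 to 74.6) and 90.3 FPKM (89.0 to 91.6), a ratio of 1.23. Both were higher in processed cells with separate bounds, and their proportion to each other stayed close, with 1.56 times as much LAMA5 as LAMA1 in live cells (1.49 to 1.64) and 1.47 times in processed cells (1.41 to 1.53).

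LAMA3 and LAMA4 were lower by far. LAMA3 (chromosome 18, 21269407 to 21535030), the alpha chain of the laminin that anchors stratified epithelia, had 1.07 FPKM in live (0.811 to 1.33) and 0.537 FPKM in processed cells (0.450 to 0.623), and its bounds were separate. LAMA4 (chromosome 6, 112429963 to 112576141), the alpha chain known from vessel walls and mesenchyme, had 1.01 FPKM (0.646 to 1.38) and 1.21 FPKM (0.842 to 1.58), with overlapping bounds. LAMA5 overlaps ADRM1 on the opposite strand, with 45.5 and 51.3 FPKM. LAMA5 took 60.3% of the FPKM of the 4 matched alpha chains in live and 59.0% in processed cells.

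All 4 laminin beta chains were higher in processed cells, 3 of them with separate bounds. LAMB1 (chromosome 7, 107564244 to 107643700), the most widely used beta chain, had 111 FPKM in live (109 to 114) and 126 FPKM in processed cells (123 to 129), a ratio of 1.13. Its end overlaps DLD on the opposite strand, with 34.1 and 24.3 FPKM. LAMB2 (chromosome 3, 49158547 to 49170551), the beta chain of mature basement membranes such as those of kidney and synapse, had 68.4 FPKM (65.6 to 71.3) and 110.4 FPKM (106 to 115), a ratio of 1.61. The difference of LAMB2 was the largest among the laminins above 10 FPKM, and it changed the makeup of the pool. LAMB1 exceeded LAMB2 by 1.62 times in live cells (1.52 to 1.73) but by 1.14 times in processed cells (1.07 to 1.22), and its share of beta chain FPKM was 60.2% and 51.6%. This proportion is taken within each library and does not depend on how the libraries are scaled.

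LAMB3 (chromosome 1, 209788220 to 209825811), which joins LAMA3 in the anchoring laminin of epithelia, had 4.73 FPKM in live (4.5 to 4.96) and 5.05 FPKM in processed cells (4.78 to 5.31), and its bounds overlapped. LAMB4 (chromosome 7, 107663993 to 107770801), a little studied beta chain whose gene lies next to LAMB1, had 0.480 FPKM (0.314 to 0.646) and 2.42 FPKM (1.90 to 2.94), a ratio of 5.04 and a log2 ratio of 1.21. No other gene above the filter overlaps LAMB4 in the files' coordinates. LAMA3 and LAMB3 thus did not move together, with log2 ratios of -0.43 and 0.08.

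The gamma chain LAMC1 stood apart from the abundant alpha and beta chains, in level and in direction. LAMC1 (chromosome 1, 182992597 to 183114727), the gamma chain of most laminins, had 21.8 FPKM in live (21.2 to 22.5) and 16.2 FPKM in processed cells (15.2 to 17.2), a ratio of 0.743 and a log2 ratio of -0.41. It was lower in processed cells with separate bounds, whereas LAMA5, LAMA1, LAMB1 and LAMB2 were higher. The gamma chain LAMC3 stayed below 0.1 FPKM in both.

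Since a laminin holds one chain of each kind, levels of chains of different kinds were set against each other within each library. In live cells the matched alpha chains, which leave out LAMA2, summed to 190.1 FPKM and beta chains to 185 FPKM. In processed cells they summed to 225 and 244 FPKM. The alpha to beta ratio was 1.03 in live (0.970 to 1.09) and 0.921 in processed cells (0.869 to 0.977). The bracket included 1 in live cells and lay below 1 in processed cells. LAMB1 exceeded LAMC1 by 5.09 times in live cells (4.82 to 5.37) and 7.75 times in processed cells (7.15 to 8.44). LAMA5 exceeded LAMC1 by 5.25 times (4.94 to 5.58) and 8.16 times (7.48 to 8.94). The brackets give the extremes allowed by the bounds of the chains, and for both ratios to LAMC1 they did not overlap between libraries. The gap between LAMC1 and its most abundant partner chains was therefore wider in processed cells.

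**Figure D2:**
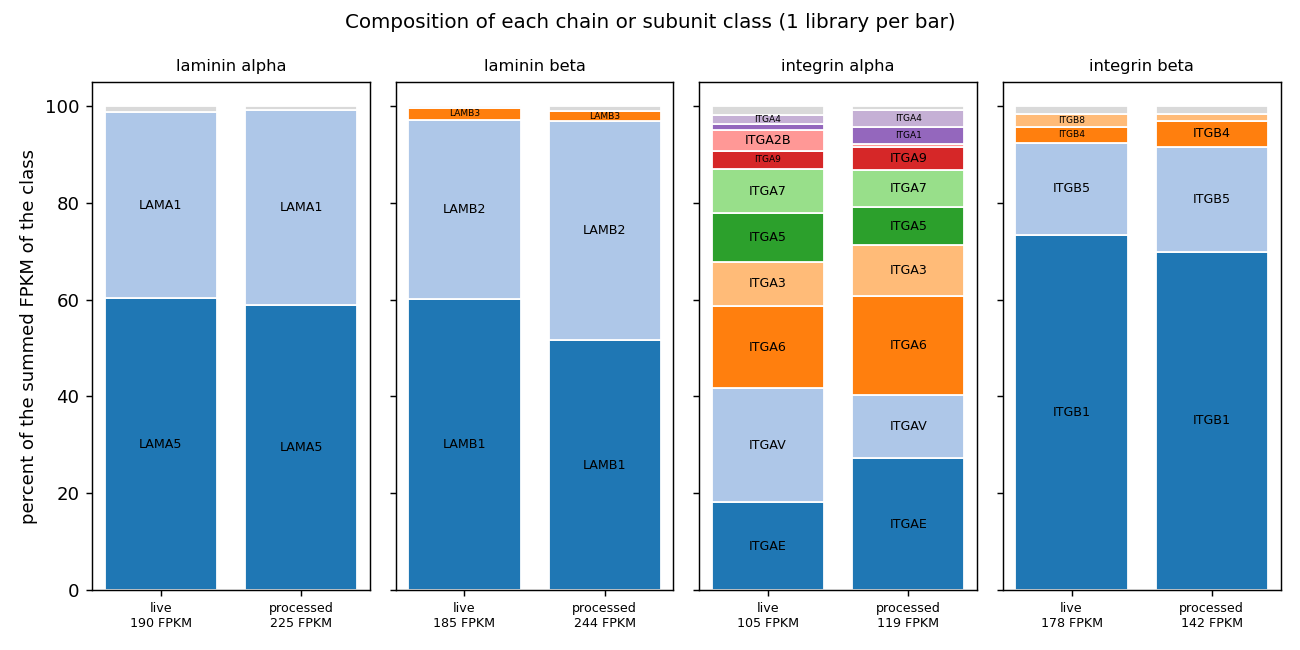
Percent of the summed FPKM of 4 classes taken by each gene, in live and processed cells (1 library per bar, class sums under the bars; grey stands for all genes under 2% of the class in both). LAMB1 gives way to LAMB2 within the beta chains (60.2% to 51.6%), ITGAV goes from 23.6% to 13.2% and ITGAE from 18.1% to 27.2% of the integrin alpha subunits, and ITGB1 holds 73.4% and 70.0% of the integrin beta subunits.

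Among the integrin beta subunits, ITGB1 was dominant, and of the 5 above the filter all but ITGB4 were lower in processed cells. ITGB1 (chromosome 10, 33189247 to 33294720), the common partner of the laminin, collagen and fibronectin receptors, had 130.3 FPKM in live (128 to 133) and 99.2 FPKM in processed cells (97.3 to 101), a ratio of 0.761 with separate bounds. ITGB5 (chromosome 3, 124480795 to 124606674), a partner of ITGAV in vitronectin receptors, had 33.9 FPKM (32.3 to 35.5) and 30.8 FPKM (28.8 to 32.7). ITGB6, an epithelial partner of ITGAV, had 2.54 FPKM (2.32 to 2.75) and 2.23 FPKM (2.07 to 2.39). The bounds of ITGB5 and ITGB6 overlapped between libraries.

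ITGB8 (chromosome 7, 20370325 to 20450419), which with ITGAV binds latent TGF-beta, had 4.80 FPKM in live (4.54 to 5.06) and 1.99 FPKM in processed cells (1.79 to 2.2), a ratio of 0.416. This was 2.41-fold lower, but with the pseudocount of 1 the log2 ratio of -0.95 stayed just inside the 2-fold line. ITGB4 (chromosome 17, 73717408 to 73753899), the subunit of hemidesmosomes that pairs with ITGA6 alone, had 5.81 FPKM (5.15 to 6.47) and 7.54 FPKM (6.65 to 8.42), and was the one beta subunit above 1 FPKM that was higher in processed cells. It overlaps GALK1 on the opposite strand, at 6.36 and 11.1 FPKM. The labels name no strand-specific kit, so fragments from opposite strands in an overlap cannot be told apart.

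The laminin-binding alpha subunits were moderately abundant. ITGA6 (chromosome 2, 173292082 to 173371181), which joins ITGB1 or ITGB4, had 17.9 FPKM in live (17.0 to 18.9) and 24.1 FPKM in processed cells (21.6 to 26.6), a ratio of 1.35. ITGA3 (chromosome 17, 48133332 to 48167845), the laminin receptor subunit of many epithelia, had 9.58 FPKM (9.06 to 10.1) and 12.5 FPKM (11 to 14), a ratio of 1.31. ITGA7 (chromosome 12, 56078352 to 56109827), best known from muscle, had 9.55 FPKM (8.81 to 10.3) and 9.04 FPKM (8.60 to 9.48). ITGA6 and ITGA3 were higher in processed cells with separate bounds, while the bounds of ITGA7 overlapped. ITGA7 overlaps BLOC1S1 on the opposite strand, with 33.7 and 39.2 FPKM, and RP11-644F5.10, with 2.14 FPKM in live cells and a vanishing value in processed cells. The 3 summed to 37 and 45.7 FPKM. ITGA6 kept its proportion to ITGB4, at 3.08 (2.62 to 3.66) and 3.20 (2.56 to 4.01), and to ITGA3, at 1.87 (1.68 to 2.08) and 1.92 (1.54 to 2.41).

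The alpha subunits that recognise arginine-glycine-aspartate were on balance lower in processed cells. ITGAV (chromosome 2, 187454792 to 187545628), which pairs with ITGB1, ITGB3, ITGB5, ITGB6 and ITGB8, had 24.8 FPKM in live (23.7 to 26) and 15.6 FPKM in processed cells (15.2 to 16.1), a ratio of 0.630. ITGA5 (chromosome 12, 54789045 to 54813244), the fibronectin receptor subunit, had 10.6 FPKM (9.70 to 11.5) and 9.44 FPKM (8.73 to 10.2) with overlapping bounds. ITGA2B (chromosome 17, 42449548 to 42466873), known as the fibrinogen receptor subunit of platelets, had 4.51 FPKM (3.27 to 5.75) and 0.812 FPKM (0.702 to 0.921), a ratio of 0.180 and a log2 ratio of -1.60, the lowest of the set.

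Platelet and megakaryocyte markers were below ITGA2B in live cells but not in processed cells, where PF4 was above it. Of 5 such markers, GP9 and PPBP were listed at 0 in both libraries and GP6 was at a vanishing value in both, GP1BA had 0.377 FPKM in live cells and was listed at 0 in processed cells, and PF4 had 0.575 FPKM (0.295 to 0.855) and 1.83 FPKM (1.40 to 2.25). PF4 was thus higher in processed cells, where ITGA2B was lower. Their summed level was 0.953 and 1.83 FPKM. ITGB3, the subunit that joins ITGA2B on platelets, had 0.104 and 4.1e-04 FPKM. The ITGB3 locus overlaps EFCAB13 on the same strand, with 2.59 and 3.15 FPKM. The part of other cells or of overlapping transcripts in these values was not tested.

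The collagen-binding subunits and the pair ITGA4 and ITGA9 included the gene with the highest log2 ratio. ITGA1 (chromosome 5, 52083730 to 52252327), a collagen receptor subunit of mesenchymal cells, had 1.20 FPKM in live (1.06 to 1.33) and 4.23 FPKM in processed cells (3.41 to 5.05), a ratio of 3.53 and a log2 ratio of 1.25. The ITGA1 locus holds PELO on the same strand, with 4.66 and 5.0 FPKM, and a processed pseudogene, CTD-2207L17.1, with 0.234 and 2.90 FPKM, so that the sharing of fragments among them is uncertain. ITGA4 (chromosome 2, 182321929 to 182400914), a receptor subunit for VCAM1 and fibronectin, had 1.95 FPKM (1.64 to 2.26) and 4.04 FPKM (3.56 to 4.52), a ratio of 2.07 and a log2 ratio of 0.77. ITGA9 (chromosome 3, 37493606 to 37865005), the subunit most like ITGA4, had 4.03 FPKM (3.57 to 4.5) and 5.59 FPKM (4.68 to 6.50). An antisense RNA over ITGA9, AC093415.2, had 1.90 and 0.134 FPKM, and one over ITGA6, AC093818.1, had 1.69 and 0.190 FPKM.

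ITGAE (chromosome 17, 3617922 to 3704537) was the most abundant alpha subunit of the group known from leukocytes. It encodes the subunit that with ITGB7 binds E-cadherin and marks lymphocytes in epithelia. It had 19.0 FPKM in live (17.7 to 20.3) and 32.3 FPKM in processed cells (30.8 to 33.8), a ratio of 1.70, and was the highest of all alpha subunits in processed cells. Its partner ITGB7 had 0.0063 and 0.0246 FPKM. The ITGAE locus holds GSG2 on the opposite strand, with 2.59 and 1.38 FPKM, and CTD-3195I5.3, with 1.16 and 0.391 FPKM. Both were lower in processed cells. The part of overlapping transcripts or of other cells in the ITGAE values was not tested.

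The other leukocyte integrins were near 0. ITGAL had 0.176 FPKM in live cells (0.0798 to 0.273) and 8.5e-04 FPKM in processed cells, ITGAM had 0.245 FPKM (0.122 to 0.369) and 0.0071 FPKM, ITGAX had 0.0249 FPKM and was listed at 0, ITGB2 had 0.0169 FPKM and was listed at 0, and ITGAD was listed at 0 in both. If all fragments came from the longest annotated transcript, which gives the highest number, the live values stand for about 129 fragments of ITGAL, 112 of ITGAM, 11.2 of ITGAX and 7.79 of ITGB2. None of the 10 leukocyte markers examined reached 1 FPKM in either library. Their summed level was 1.95 and 1.63 FPKM, most of it from CD68 and CSF1R, which other cells can also express. The pan-leukocyte gene PTPRC had 0.174 FPKM in live cells and was listed at 0 in processed cells, and CD14 had 0.25 FPKM and was listed at 0. CSF1R was listed higher in processed cells, with 0.498 FPKM in live (0.420 to 0.576) and 0.923 FPKM in processed cells (0 to 1.85). Its bounds overlapped, so its direction is not determined. Over the whole list 7 markers were lower and 2 higher in processed cells, and CD3E was listed at 0 in both. Their part in the values of the leukocyte integrins was not tested.

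Of the 12 genes below 1 FPKM in both libraries, 8 were lower in processed cells, 3 were higher and ITGAD was at 0 in both. The 8 make up 72.7% of the 11 that were above 0 in at least one library. Of all 13277 genes above 0 in at least one library and below 1 in both, 66.2% were lower and 27.7% were higher, so most low genes in general were lower in processed cells too. The highest of them was ITGA2, a collagen receptor subunit of epithelia and platelets, with 0.769 FPKM (0.704 to 0.833) in live and 0.410 FPKM (0.360 to 0.459) in processed cells. ITGA8 had 0.411 and 0.294 FPKM, ITGA11, a collagen receptor subunit of fibroblasts, 0.182 and 0.0095 FPKM, ITGA10 0.111 and 0.25 FPKM, and LAMC3 0.0572 and 0.0841 FPKM.

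**Figure D3:**
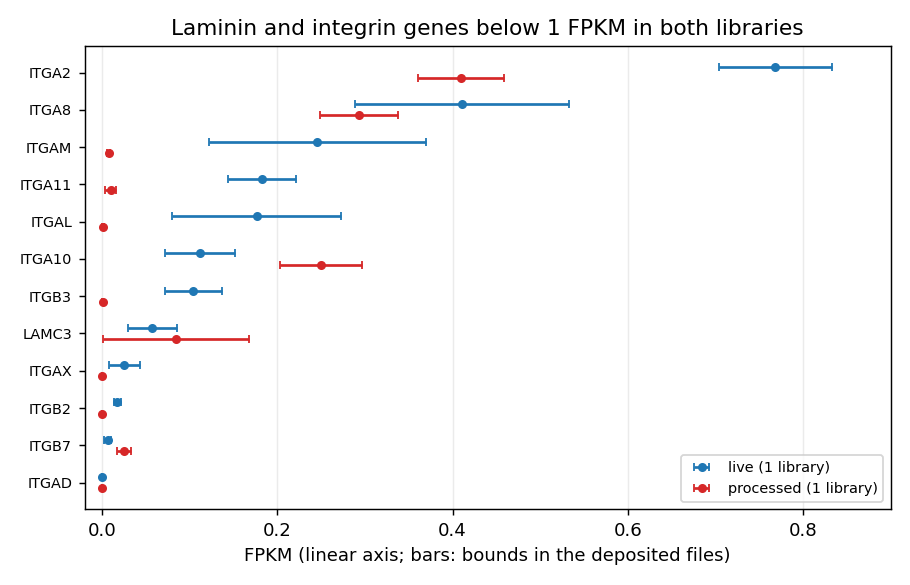
FPKM (linear axis) of the 12 laminin and integrin genes below 1 FPKM in both libraries, in live (blue) and processed (red) cells, with the bounds in the deposited files as bars. ITGAM, ITGAL, ITGA11 and ITGB3 lie between 0.104 and 0.245 FPKM in live and below 0.01 FPKM in processed cells, while ITGA10 is higher in processed cells.

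Taken as subunit pools, integrin beta transcripts exceeded alpha transcripts 1.69 times in live cells (1.52 to 1.88) and 1.19 times in processed cells (1.07 to 1.35). For ITGB1 against the summed 12 alpha subunits that can pair with it, the proportion was 1.61 (1.48 to 1.75) and 1.16 (1.04 to 1.30). Neither pair of brackets overlapped. ITGAV with its partner ITGB5 stood at 0.732 (0.666 to 0.804) and 0.508 (0.464 to 0.559).

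On the log2 scale (pseudocount 1), LAMB4 and ITGA1 were past 2-fold upwards in processed cells and ITGA2B downwards, which is 3 of 25 or 12%. The background over all 17326 genes that passed the same filter was 12.8%, with 6.57% higher and 6.19% lower, so the share was near that of genes in general. All 3 genes were below 10 FPKM in both libraries, where 3 of 13 laminin and integrin genes (23.1%) and 20.2% of all genes passed 2-fold. Of the 12 that reached 10 FPKM in at least one library, 0 passed 2-fold, against 5.01% of all 8515 such genes, and their log2 ratios lay between -0.63 (ITGAV) and 0.73 (ITGAE).

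The bounds of 19 of the 25 genes (76.0%) were separate between live and processed cells, 12 of them higher and 7 lower in processed cells. Over all genes the share was 71.8%, and more of those genes were lower than higher in processed cells. These bounds were narrow, with half-widths of 1.46% to 11.9% of the FPKM for genes that reached 10 FPKM and of 4.79% to 36.1% for the others. With no second library of either condition, the separation of bounds between like samples is not known.

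By class, the median log2 ratio was 0.16 for the 10 laminin chains, 0.37 for the 10 integrin alpha subunits and -0.14 for the 5 integrin beta subunits above the filter, beside -0.09 for all genes. Of the 25 genes, 14 were higher in processed cells (56.0%), compared with 41.7% of all genes. Without the filter, the median of the integrin alpha subunits was -0.05. Dividing processed FPKM by the median ratio of 0.932 turned the direction of 1 gene, ITGA7, from -0.07 to 0.02.

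**Figure D4:**
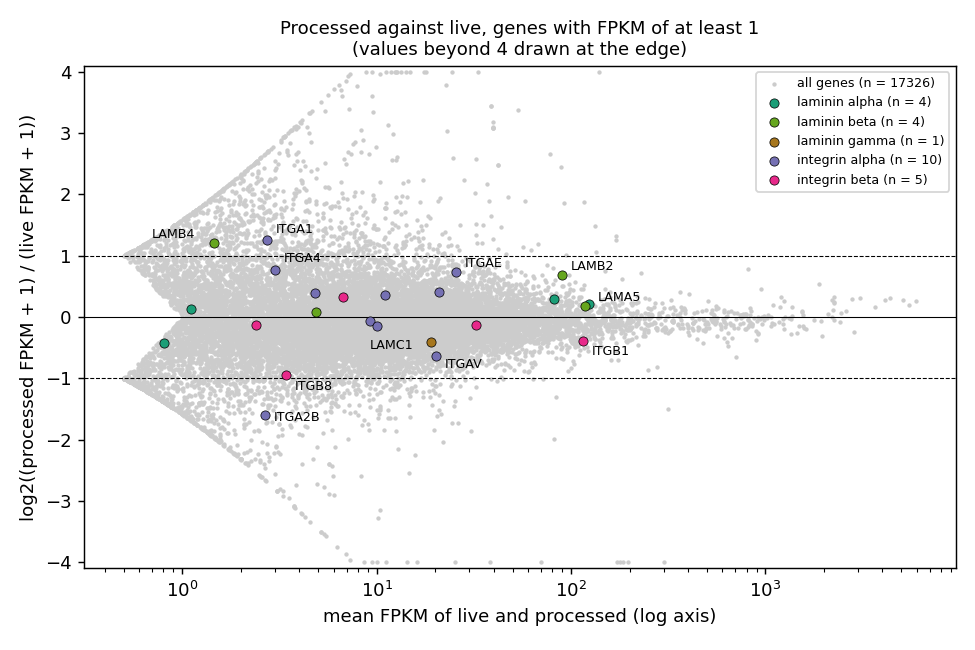
Log2 ratio of processed to live FPKM (pseudocount 1) against mean FPKM (log axis) for all 17326 genes that passed the filter of 1 FPKM (grey) and for 24 of the 25 laminin and integrin genes (coloured by class). Dashed lines mark 2-fold; LAMB4, ITGA1 and ITGA2B lie outside them, all at low FPKM, and the abundant genes lie within.

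Many of these genes have long transcripts, and the ratio of processed to live FPKM moved with length over all genes. Over protein-coding genes that reached 1 FPKM in both libraries, the median log2 ratio was -0.02 for longest transcripts under 2000 nt, -0.16 from 5000 to 8000 nt and -0.19 at 8000 nt or more. The 12 laminin and integrin genes of 5000 to 8000 nt had a median of 0.25, and the 4 of at least 8000 nt, LAMA5, LAMA1, ITGA1 and ITGB8, also had a median of 0.25. The 6 genes of 3500 to 5000 nt had a median of -0.10, beside -0.13 for all genes of that length. LAMA5 and LAMA1, with longest transcripts of 11426 and 10374 nt, were higher in processed cells at a length where 31.7% of genes were. ITGA1 was also higher and ITGB8 was lower. LAMA3, of 10651 nt, was lower too but is left out of this comparison, being below 1 FPKM in processed cells. The part of transcript length in these values was not tested.

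Few of the genes that work with laminins and integrins passed 2-fold. Of 72 such genes in 6 lists, 68 passed the filter, and 1 of them (1.47%) was past 2-fold, against 12.8% of all genes. With a pseudocount of 0.1 the number was 5, and 20.0% of all genes passed. Most of these partner genes were abundant: 52 reached 10 FPKM in at least one library and 0 of them passed 2-fold, beside 5.01% of all such genes, and 1 of the other 16 did, beside 20.2%. SPP1 (osteopontin), a ligand of ITGAV integrins, lay just inside the line, with 7.12 and 3.28 FPKM and a log2 ratio of -0.92, as did FBN1 and COL17A1. Over the 68 genes the median log2 ratio was -0.12, beside -0.09 for all genes. The bounds of 48 (70.6%) were separate, 14 higher and 34 lower in processed cells. Of all genes 71.8% had separate bounds, and more of those were lower than higher in processed cells too. By log2 ratio alone, 41.2% of the 68 genes and 41.7% of all genes were higher in processed cells. The counts by list below stand against this general lean.

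Of the 13 basement membrane partners, 11 were above the filter, 4 of them with separate bounds higher and 4 lower in processed cells. The most abundant was COL18A1, a collagen of epithelial and vascular basement membranes, with 234 and 244 FPKM. The largest difference was that of HSPG2 (perlecan), a proteoglycan that binds laminin, with 52.6 and 74.6 FPKM and a log2 ratio of 0.50. Of the 4 other laminin receptors, BCAM, which binds LAMA5, had 128 and 131 FPKM, and DAG1 (dystroglycan) had 43.9 and 33.5 FPKM, a log2 ratio of -0.38. Their median was -0.17.

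All 29 integrin adaptors and kinases were above the filter, 5 with separate bounds higher and 14 lower in processed cells. Their median log2 ratio was -0.08. The most abundant, the actin crosslinker FLNA, had 203 and 241 FPKM. LIMS2, an adaptor that binds integrin-linked kinase, had 3.42 and 9.77 FPKM, a log2 ratio of 1.28, and was the one partner gene past 2-fold. Of the 7 tetraspanins, which associate with laminin-binding integrins, 6 were above the filter with a median of 0.01, with CD63 at 226 and 231 FPKM and CD82 at 7.68 and 5.35 FPKM.

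Of 16 other integrin ligands, 15 were above the filter, 3 with separate bounds higher and 9 lower in processed cells. Their median log2 ratio was -0.24. FN1 (fibronectin) was listed at 314 FPKM in live cells with bounds of 0 to 3000, so that its live level is poorly determined, and had 416 FPKM (411 to 422) in processed cells. FBN1 (fibrillin), a ligand of ITGAV integrins, had 5.06 and 11 FPKM, a log2 ratio of 0.99. The 4 hemidesmosome genes had a median of -0.13. CD151 had 72.6 and 74.4 FPKM, and COL17A1, the collagen of hemidesmosomes, had 1.46 and 0.330 FPKM, a log2 ratio of -0.89. Of the 4 hemidesmosome genes, 1 was higher and 2 were lower in processed cells with separate bounds. Both COL17A1 and LAMA3 were lower with separate bounds, ITGB4 and ITGA6 were higher with separate bounds, and the bounds of LAMB3 overlapped.

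Markers of other cell types stood beside these values as follows. The 5 epithelial markers summed to 3563 and 3331 FPKM, with log2 ratios from -0.18 to 0.27. The 6 mesenchymal markers summed to 64.8 and 58.4 FPKM and were uneven, with DCN at 4.18 and 12.4 FPKM and PDGFRB at 4.26 and 1.17 FPKM. The 4 endothelial markers found summed to 2.37 and 2.31 FPKM, led by KDR with 1.21 and 0.857 FPKM. Of the 3 pluripotent markers, NANOG was past 2-fold, with 1.27 FPKM in live (1.06 to 1.48) and 7.34 FPKM in processed cells (4.95 to 9.74), a log2 ratio of 1.88. LIN28A had 119 and 88.7 FPKM and POU5F1 had 7.92 and 8.53 FPKM. The part of the pluripotent markers in the laminin and integrin values was not tested. The part of the mesenchymal markers in the values of ITGA1, ITGA11 and LAMA4 was not tested.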

How the data were processed

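The authors sequenced poly-A RNA of 1 live and 1 processed sample as paired reads of 80 nt and aligned them to GRCh37/hg19 with STAR 2.2.0c guided by GENCODE annotations. FPKM per gene, with bounds, was deposited by the authors and comes from Cuffdiff in the paper's methods and from Cufflinks 2.0.2 in the submitters' processing notes. Read counts were not analysed here. Tables were joined by gene identifier, since 5489 genes stood in the same row. Starts were raised by 1 to count from 1. Calculations used Python 3.11.15, pandas 2.3.3 and numpy 2.4.6. Only the log2 ratio was tried on simulated counts, and the other calculations were not. Log2 ratios used a pseudocount of 1, and genes were kept that reached 1 FPKM in one library or both. Transcript length, strand and gene type came from GENCODE release 44 mapped to GRCh37, which is later than the authors' release and held all 37 genes. The value of 1 fragment was the fullest step of FPKM times transcript length less 170 nt among single-transcript genes (bin 5.0e-04). Members that reached 1 FPKM are named, except 1 that is counted but not reported here, and those below 1 are named once. Of each partner list, the most abundant gene and the gene with the largest log2 ratio are named, as are genes at or above 1 FPKM that overlap a member. ITGA10, SPP1, PTPRC, CD14, CSF1R, DCN, PDGFRB, NANOG, LIN28A, POU5F1, INS, PDX1 and EPCAM are named as examples from fixed lists. Members and lists were chosen with earlier results of these data known.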

Additional observations from a re-analysis of the deposited data

How the results depend on the processing

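No paired analysis was possible because each condition has 1 library and the labels carry no replicate number. Of 55 values recomputed under other settings, 48 stayed within 1.5 times for counts, 0.1 for log2 medians or 5 percentage points for shares. Some of these could not have moved, so the number is no measure of stability. Requiring a status of OK removed none of the 37 genes. With a pseudocount of 1, genes below 1 FPKM in both libraries cannot pass 2-fold, so dropping the filter left those counts fixed. Shares were varied only within the FPKM bounds. With a pseudocount of 0.1, 3 genes were more than 2-fold higher, ITGA1, ITGA4 and LAMB4, and 2 were lower, ITGA2B and ITGB8. At this setting 5 partner genes passed 2-fold. With an FPKM of at least 1 required in both libraries, which removes LAMB4 and ITGA2B, 1 of 22 genes was more than 2-fold higher and 0 lower. Under the same requirement 426 of all 14635 genes were higher and 336 lower, together 5.21%. Without a filter the median log2 ratio of integrin alpha subunits was -0.053, since the low genes enter. Dividing by the median ratio shifted the median of all genes by 0.09 and raised the number of partner genes past 2-fold from 1 to 2. At that setting 13.2% of all genes passed. With bounds widened to 2 times, 14 of 25 genes had separate bounds, beside 48.5% of all genes. Over all genes, 20.0% passed 2-fold with a pseudocount of 0.1. FPKM bounds and fragment numbers cover counting and assignment error within a library only.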

Other observations

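Some genes are named after integrins but encode no subunit. ITGB1BP1, which binds the tail of ITGB1, had 21.2 FPKM in live (19.8 to 22.6) and 15 FPKM in processed cells (14.2 to 15.9), a log2 ratio of -0.47 with separate bounds. ITGB3BP, a centromere protein despite its name, had 18.7 and 15.9 FPKM (live, then processed). ITGB1BP2, known from muscle, had 0.515 and 0.165 FPKM. The antisense gene ITGB5-AS1 had 0.0404 FPKM in live cells and was listed at 0 in processed cells, and ITGB2-AS1 was listed at 0 in both.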
